A study of Homo sapiens with 10 samples.

Results

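The H3K9me3 regions called in ERH knockdown fibroblasts include a set of long domains that lie outside zinc finger genes, and these domains are described here. A region of the deposited list was taken when it lay on chromosomes 1 to 22, carried piece number 1 (the only or first piece of a region), spanned at least 10 kb and shared no base with a protein-coding gene whose symbol is 1 of the prefixes ZNF, ZFP, ZSCAN and ZKSCAN followed by a digit. Of the 10536 regions of the list, 400 met the rule. They made up 3.80% of the regions and, with 8.81 Mb, 17.5% of the bases of the list. Another 125 long autosomal regions shared a base with such a zinc finger gene, and 9836 autosomal regions with piece number 1 were shorter than 10 kb.

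The study profiled chromatin by CUT&RUN in BJ fibroblasts, a cell line from human foreskin. In this assay an antibody on permeabilised cells recruits protein A/G-micrococcal nuclease, and the DNA that the nuclease releases there is sequenced. There were 4 groups per the labels. H3K9me3 was profiled in 3 samples with non-targeting siRNA and 3 samples with siRNA against ERH, at 5 nM in 2 cycles set 3 days apart. SOX2 was profiled in 2 control and 2 knockdown samples collected 48 hours after Sendai virus delivered OCT4, SOX2, KLF4 and c-MYC. The list analysed here pools the 3 ERH knockdown H3K9me3 samples, and values of the other groups were not analysed here. No value below is therefore a change upon knockdown, none has an error between replicates, and the sequencing depth is unknown. The siRNA against ERH is 1 sequence per the labels, and the knockdown itself was not measured in this list.

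H3K9me3 is laid down mainly by the SUV39H and SETDB1 histone methyltransferases and is read by the HP1 proteins, which compact the marked chromatin. In differentiated cells it covers satellite repeats around the centromeres, which are needed for chromosome segregation, and broad domains over lineage genes and repeats that hinder access of transcription factors. ERH is a small conserved protein whose fission yeast counterpart takes part in forming heterochromatin over meiotic genes. KRAB zinc finger gene clusters are a well known site of long H3K9me3 domains, and the domains described here are those that remain once these genes are set aside.

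The genome sequence of the domains was not used here, but RefSeq promoter windows (GRCh38.p14, 250 bases before to 50 bases after an annotated start) were. Of 33725 autosomal windows, 23 lay wholly inside a long domain, from 21 genes, 5 of them protein-coding. Windows of 4 of these 5 genes are shown so that CG-poor and CG-rich starts inside domains can be set side by side. The protocadherins and OR1L4 were picked by the rule for named genes, and FANK1 was picked after its value was seen. Capitals mark the CG dinucleotides, the bases at which vertebrate DNA is mostly methylated, and all 4 windows are on the plus strand.
PCDHB15, chr5:141245145-141245444: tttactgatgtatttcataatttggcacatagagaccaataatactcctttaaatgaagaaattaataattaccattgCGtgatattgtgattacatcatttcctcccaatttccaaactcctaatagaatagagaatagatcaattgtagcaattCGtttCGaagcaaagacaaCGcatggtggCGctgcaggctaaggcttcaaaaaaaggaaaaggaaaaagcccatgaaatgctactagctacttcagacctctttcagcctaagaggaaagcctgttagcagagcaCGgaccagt
PCDHA1, chr5:140785890-140786189: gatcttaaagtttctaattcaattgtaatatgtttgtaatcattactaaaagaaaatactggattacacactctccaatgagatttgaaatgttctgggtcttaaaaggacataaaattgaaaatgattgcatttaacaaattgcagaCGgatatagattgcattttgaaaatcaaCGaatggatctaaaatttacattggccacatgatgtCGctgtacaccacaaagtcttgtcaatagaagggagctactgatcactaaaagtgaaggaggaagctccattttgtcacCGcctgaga
OR1L4, chr9:122723740-122724039: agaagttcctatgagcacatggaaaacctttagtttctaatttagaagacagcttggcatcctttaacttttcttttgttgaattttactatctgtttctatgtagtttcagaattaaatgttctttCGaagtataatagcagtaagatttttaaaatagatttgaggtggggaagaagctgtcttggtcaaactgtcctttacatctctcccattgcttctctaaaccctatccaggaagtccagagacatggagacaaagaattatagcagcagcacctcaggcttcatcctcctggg
FANK1, chr10:125896314-125896613: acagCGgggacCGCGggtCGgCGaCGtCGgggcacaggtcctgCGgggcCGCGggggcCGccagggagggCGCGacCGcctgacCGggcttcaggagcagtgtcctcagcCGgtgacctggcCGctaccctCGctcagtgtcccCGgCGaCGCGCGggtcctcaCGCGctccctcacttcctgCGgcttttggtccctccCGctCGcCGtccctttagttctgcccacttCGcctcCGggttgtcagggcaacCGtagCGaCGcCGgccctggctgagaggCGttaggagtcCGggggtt

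The window of FANK1, a testis-enriched ankyrin and fibronectin domain protein, held 37 CG dinucleotides, and 89.9% of all autosomal windows held no more than that. It also reaches into the neighbouring gene DHX32, which spans 125836337-125896485. The same domain covered 10.6 kb of DHX32 and 2.66 kb of FANK1. The windows of the other genes shown held few. PCDHB15 had 6, PCDHA1 had 4 and OR1L4 had 1, counts at or above those of 36.9%, 29.8% and 10.97% of all windows. Over the 23 windows inside domains the median was 8 CG dinucleotides (range 0 to 37), beside 14 over all windows, and the median GC content was 52.7% beside 58.7%. The windows inside domains therefore spanned CG-poor and CG-rich starts. Only 5 of their 21 genes were protein-coding, and the comparison with all windows was not matched for gene type. FANK1 and LOC101927209 each gave more than 1 window, and those windows overlap. A count of CG in a window does not tell whether the DNA was methylated.

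Mature miRNAs gave a second set of sequences. The domains overlapped 6 of 1793 autosomal miRNA genes (0.335%). Of their mature sequences 3 are shown, picked after their values were seen. Among the domains with a miRNA gene, those of miR-663b and miR-9901 had the highest scores per base pair, and that of miR-3648 held 2 miRNA genes, MIR3648-2 and MIR10396A. Capitals mark the seed, bases 2 to 8.
hsa-miR-663b: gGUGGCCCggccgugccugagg
hsa-miR-9901: cGGUCGCCgcgguucgccgcc
hsa-miR-3648: aGCCGCGGggaucgccgaggg
These 3 seeds differ from each other. Mature miR-663b lies at chr2:132256970-132256991 in a domain of 23029 bp with 76.7 score units per base pair. The same domain holds the ribosomal RNA pseudogene RNA5-8SP5. Mature miR-9901 lies at chr16:34163601-34163621 in a domain of 47705 bp with 46.3 units per base pair, which also holds RNA5-8SP2, another ribosomal RNA pseudogene. Mature miR-3648 of the gene copy MIR3648-2 lies at chr21:8987026-8987046 in a domain of 13447 bp with 17.8 units per base pair. Nothing in the list tells whether these miRNAs are transcribed.

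Most long domains were only a little above the length minimum, and a minority was very long. The median length was 14712.5 bp and the 95th percentile was 62123 bp. Domains of 10 to 15 kb numbered 209, those of 15 to 20 kb 51, those of 20 to 50 kb 112 and those of at least 50 kb 28. The 28 longest held 23.8% of the bases in domains. Length chose these domains, so its distribution is a description. Just inside the minimum were domains of 10002 bp on chromosome 4 and of 10004 bp on chromosomes 12 and 15, with 6.26, 7.60 and 4.82 score units per base pair. Just outside were regions of 9977 bp on chromosome 6, 9976 bp on chromosome 21 and 9972 bp on chromosome 3, with 8.50, 4.43 and 10.8 units per base pair. The values on both sides of the minimum overlapped.

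The domains were concentrated beside large gene-free parts of the chromosomes. RefSeq has 26 autosomal stretches of at least 2 Mb with no annotated gene of any type, at least 1 on each of the 22 autosomes, from 2.02 to 21.7 Mb long. Gene-free stretches of this size are known mainly from centromeres, the satellite arrays next to them and the short arms of the acrocentric chromosomes. No table of centromere positions was used here, so the stretches stand in for them. Of the 400 domains, 240 (60.0%, Wilson 95% interval 55.1 to 64.7%) lay within 5 Mb of such a stretch and 118 (29.5%) touched or lay inside one. The stretches with 5 Mb on either side make up 13.1% of the summed chromosome spans. Of the shorter regions, 744 of 9836 (7.56%, 7.06 to 8.10%) lay within 5 Mb, and of the long regions in zinc finger genes 35 of 125 (28%, 20.9 to 36.4%). Counted by bases, 73.9% of the domain length lay within 5 Mb, beside 8.61% for shorter regions. These intervals cover counting error only, neighbouring regions of 1 list are not independent, and no test was made between the classes.

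The share near gene-free stretches increased with length within the set. It was 37.3% (78 of 209) at 10 to 15 kb, 74.5% (38 of 51) at 15 to 20 kb, 87.5% (98 of 112) at 20 to 50 kb and 92.9% (26 of 28) from 50 kb. When regions less than 5 kb apart were joined first, the set grew to 510 domains and the share within 5 Mb was 33.7%. With a distance of 1 Mb in place of 5 Mb it was 43.5%. The joined set had 172 domains within 5 Mb and 338 farther away, beside 240 and 160 as deposited.

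**Figure D1:**
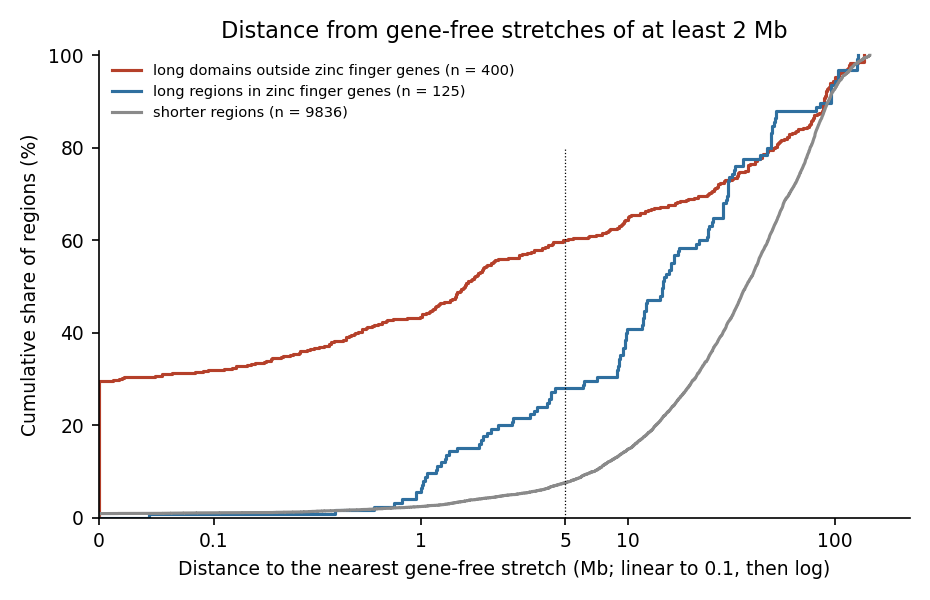
Cumulative share of autosomal regions (y axis, percent) within a given distance of the nearest gene-free stretch of at least 2 Mb (x axis, Mb, linear to 0.1 and logarithmic beyond), for the 400 long domains outside zinc finger genes, the 125 long regions in zinc finger genes and the 9836 shorter regions. At the dotted line (5 Mb) the curves stand at 60.0%, 28% and 7.56%.

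The chromosomes contributed unequally. Chromosome 7 had 43 domains, chromosome 11 had 38, chromosome 8 had 33, chromosome 21 had 30 and chromosome 5 had 28, and these 5 held 43.0% of all domains. Chromosome 13 had 4 and chromosome 22 had 5. Per length, chromosome 21 stood highest with 6.43 domains per 10 Mb and chromosome 19 second with 4.61, beside a median of 1.15 over the 22 autosomes. On chromosome 11, 35 of 38 domains lay within 5 Mb of a gene-free stretch, and on chromosome 16 all 12 did. On chromosomes 1 and 2, 10 of 12 and 17 of 19 lay farther away, and on chromosome 13 all 4 did. A chromosome is no replicate of another, and they were not tested against each other.

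**Figure D2:**
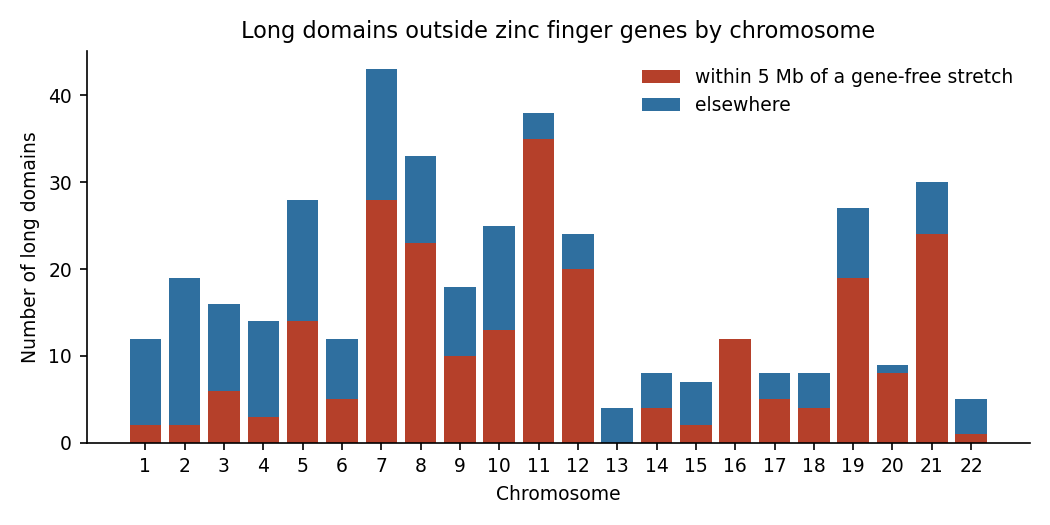
Number of long domains outside zinc finger genes (y axis) on each autosome (x axis), split by whether the domain lies within 5 Mb of a gene-free stretch of at least 2 Mb. Chromosome 7 has most, 43, of which 28 lie within 5 Mb, while chromosome 13 has 4, none of them within 5 Mb.

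The domains came in strings. For 290 of 400 (72.5%, Wilson 95% interval 67.9 to 76.6%) the next domain was less than 1 Mb away, and for 232 (58.0%) it was less than 100 kb away. The nearest other region of any length was less than 10 kb away for 251 domains (62.8%), beside 1736 of 9836 shorter regions (17.6%). The median distance to it was 4.22 kb beside 56.6 kb. Long regions in zinc finger genes were also closely spaced, with 66 of 125 (52.8%) and a median of 8.59 kb. Within 5 Mb of a gene-free stretch the count was 204 of 240 domains (85%, median 2.69 kb). Farther away it was 47 of 160 (29.4%, median 26.4 kb). Chained at less than 1 Mb, the domains formed 163 groups. Of these, 20 groups had 5 or more members and held 202 domains (50.5%), and 110 domains stood alone.

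The 5 windows of 2 Mb with most domains held 81 of them (20.3%), and all lay within 5 Mb of a gene-free stretch. On chromosome 21, 19 domains between 8641542 and 10627526 covered 23.6% of the span, with 4.64 to 19.5 score units per base pair. This stretch holds TPTE, a testis-expressed membrane protein, and BAGE2, a transcribed pseudogene of a cancer-testis antigen family. On chromosome 7, 17 domains between 62125771 and 64037854 covered 28.9% of the span, and 1 of them overlapped an annotated gene. On chromosome 11, 16 domains between 48701087 and 50695444 covered 21.1%, and 16 more between 54532075 and 55260180 covered 45.5%. None of the domains of both windows on chromosome 11 overlapped an annotated gene, although olfactory receptor genes are known from both sides of this centromere. On chromosome 8, 13 domains between 45927267 and 46544290 covered 34.4%. This window lies inside a gene-free stretch, so it holds no gene by definition.

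Among the 15 longest domains, 13 lay within 5 Mb of a gene-free stretch, 10 overlapped no annotated gene and none overlapped a protein-coding gene. Chromosome 21 had 3 of them, at 10324895-10492295 (167401 bp, 19.5 score units per base pair), 10630431-10741362 (110932 bp, 23.2 units) and 10744825-10814560 (69736 bp, 45.8 units). The first of these overlapped BAGE2 over 83.6% of that pseudogene together with a shorter domain. Chromosome 12 had 2, at 37898332-38007072 (108741 bp, 9.93 units) and 37687438-37761456 (74019 bp, 12.8 units), and chromosome 19 had 2, at 27328886-27418343 (89458 bp, 18.2 units) and 24324884-24394241 (69358 bp, 17.0 units). The pair on chromosome 19 sat at opposite ends of its gene-free stretch. Single ones lay on chromosome 5 at 46228053-46313909 (85857 bp, 8.63 units), on chromosome 7 at 62774221-62859366 (85146 bp, 8.80 units) and on chromosome 16 at 32480993-32562991 (81999 bp, 14.1 units). Chromosome 10 had 2 with high scores, at 38783314-38861775 (78462 bp, 80.9 units) and 41818685-41885273 (66589 bp, 705 units).

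Chromosome 4 had the other 3 of the 15, and 2 of these were far from any gene-free stretch. They lay near the end of the long arm, at 189547982-189615252 (67271 bp, 11.1 units) and 189652229-189735307 (83079 bp, 11.6 units). With 4 shorter domains they formed a string from 189526833 to 189897652 in which 63.6% of 370.8 kb was inside long domains. The string overlapped the non-coding RNA genes LINC01262 and FRG1-DT, the divergent transcript of FRG1, and no protein-coding gene. FRG1 and DUX4, known from facioscapulohumeral muscular dystrophy, lie farther towards this chromosome end and neither overlapped a long domain. The remaining long one on chromosome 4, at 49090912-49168780 (77869 bp), had 204 units per base pair and overlapped the non-coding RNA LOC101927209.

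The authors' score per base pair had a long upper tail inside the set. Its median was 8.47 (binomial 95% interval of the median 8.08 to 9.02), with a middle range from 6.21 to 11.8 between the quartiles and extremes of 3.34 and 1537. Shorter regions had a median of 6.90 (6.84 to 6.95) and reached higher, to 119553, and long regions in zinc finger genes one of 10.3 (9.88 to 10.6) with a maximum of 21.8. The score grows with length by its nature and has no stated unit, so these values are a description. Across the 400 domains the Spearman correlation of length with score per base pair was 0.41. It was 0.32 among domains within 5 Mb of a gene-free stretch and 0.095 among those farther away. The points share 1 pooled list, and length is the divisor. Domains within 5 Mb of a gene-free stretch had a median of 9.32 and those farther away one of 6.29.

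Above 50 score units per base pair stood 18 domains (4.50%), beside 25 of the 9836 shorter regions (0.254%). Of the 18 domains, 17 lay within 5 Mb of a gene-free stretch, 13 touched or lay inside one, and 3 overlapped an annotated gene. They held 7.08% of the domain bases and 64.8% of the summed score of the domains. All 400 domains together held 40.7% of the summed score of autosomal regions with piece number 1, and the 382 others held 19.5% once the 18 were removed from both sums. The 25 shorter regions above 50 units were kept in that sum. The 5 highest were on chromosome 18 at 20930938-20942555 (1537 units per base pair), on chromosome 10 at 42097572-42108250 (935 units), 41818685-41885273 (705 units) and 41693555-41713247 (516 units), and on chromosome 6 at 58419348-58453884 (427 units). All 5 lay within 5 Mb of a gene-free stretch and none overlapped a gene. The second of them is the first piece of a split region whose other piece lies on another chromosome, so its value per base pair has no clear meaning. The handling of reads that match repeated sequence is not given in the sources used here, and its part in these scores was not tested.

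The 5 domains with the lowest scores per base pair were all far from gene-free stretches. On chromosome 2 they lay at 103901592-103913365 (3.34 units, in LINC01965) and 16050411-16063892 (3.70 units, in the non-coding RNA GACAT3). The others were on chromosome 5 at 18489962-18500915 (3.56 units), on chromosome 9 at 80452428-80464837 (3.66 units) and on chromosome 22 at 47619261-47633014 (3.79 units). The domain on chromosome 22 covered LINC00898 whole and 0.599% of EPIC1. None of the 5 overlapped a protein-coding gene. The plot of length and score per base pair shows them along the lower edge.

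**Figure D3:**
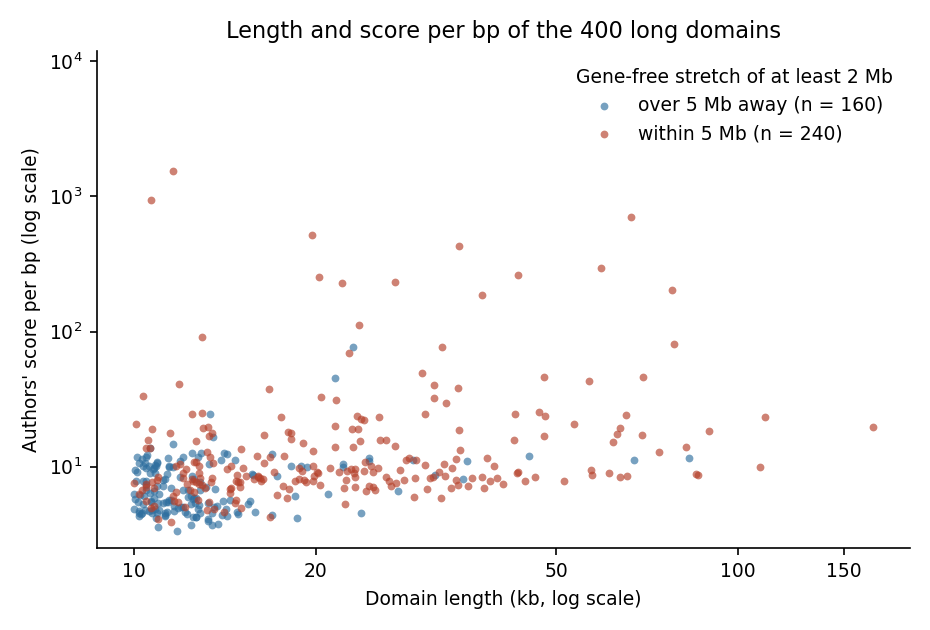
Length of each of the 400 long domains (x axis, kb, log scale) against the authors' score per base pair (y axis, log scale), by distance to the nearest gene-free stretch of at least 2 Mb. The 240 domains within 5 Mb include 26 of the 28 domains of at least 50 kb, whereas 144 of the 160 farther away are shorter than 20 kb.

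Of the 400 domains, 144 (36%, 31.4 to 40.8%) overlapped an annotated gene. At least 1 base was shared with a protein-coding gene by 52 domains (13%, Wilson 95% interval 10.1 to 16.7%), with a long non-coding RNA but no protein-coding gene by 56, and only with pseudogenes or other genes by 36. The other 256 (64.0%) overlapped no annotated gene, and their median distance to the nearest gene was 66.2 kb. Because a long region meets a gene more easily than a short one, midpoints were also compared. The midpoint lay in a protein-coding gene for 42 domains (10.5%, 7.86 to 13.9%), beside 3009 of 9836 shorter regions (30.6%, 29.7 to 31.5%). The rule itself lowers the share of the domains, since it set aside long regions in zinc finger genes. Shorter regions were not filtered in this way. Of the 125 long regions set aside, 107 midpoints (85.6%) lay in a protein-coding gene. The share of domains with such a midpoint also differed by position. Within 5 Mb of a gene-free stretch 5 of 240 midpoints (2.08%) lay in a protein-coding gene, and farther away 37 of 160 did (23.1%, 17.3 to 30.2%). The interval of the latter meets that of shorter regions only at its upper end, and the shares were not tested against each other. A gene-free stretch holds no gene by definition, and 118 of the 240 domains near one touched or lay inside one. The contrast by position is therefore partly fixed in advance.

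**Figure D4:**
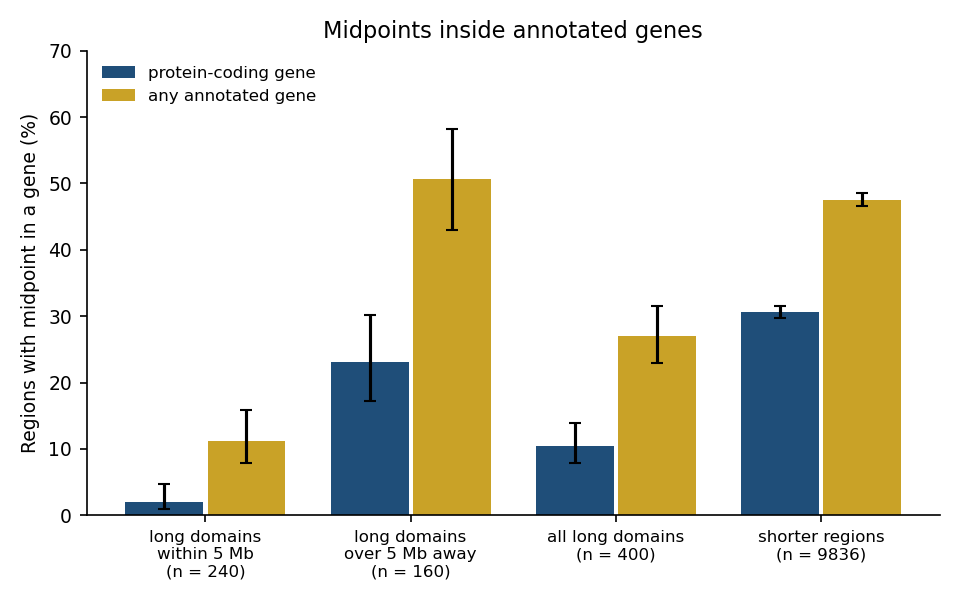
Percent of regions (y axis) whose midpoint lies inside a protein-coding gene or any annotated gene, for long domains within 5 Mb of a gene-free stretch, those farther away, all 400 and the 9836 shorter regions. Error bars are Wilson 95% intervals for counting error, and the protein-coding bars stand at 2.08%, 23.1%, 10.5% and 30.6%. Regions in zinc finger genes were set aside among long regions only, and gene-free stretches hold no gene by definition, so these shares partly follow from the definitions.

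The domains touched 49 of 18569 autosomal protein-coding genes without a zinc finger prefix, or 0.264%. Counting all gene types it was 231 of 56752 genes, or 0.407%. The 49 genes were long, with a median of 128.4 kb beside 24.6 kb for all 18569, and 29 of them exceeded 100 kb. Longer genes offer more bases to overlap, and this was not adjusted for. The median covered share of a gene was 8.70%, and 3 genes were covered whole. By type, long non-coding RNA genes were overlapped in 68 of 17795 cases (0.38%), pseudogenes in 60 of 14324 (0.42%) and transcribed pseudogenes in 19 of 1197 (1.59%).

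The gene with most bases in long domains was TPTE on chromosome 21, with 42.0 kb, or 49.9% of its 84.1 kb, in 3 domains. Near-identical copies of TPTE exist elsewhere in the genome, so the assignment of reads to this copy is uncertain. TCERG1L, a relative of a transcription elongation regulator, had 35.1 kb (16.0%) in 3 domains on chromosome 10 at 131080448-131094721, 131147357-131163197 and 131190140-131207064. Their scores per base pair were alike and low, 4.31, 4.61 and 4.36 units. The receptor-type phosphatase gene PTPRN2, whose product sits on secretory granules, had 33.3 kb (3.17%) in 3 domains on chromosome 7 at 158029721-158040689, 158108180-158120345 and 158279927-158290073, with 4.63 to 5.45 units. ANKRD30BL had 32.7 kb (29.6%) in 2 domains on chromosome 2, with 14.7 and 76.7 units, the latter being the domain that holds miR-663b.

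The next genes by covered bases each met 1 domain, except KRABD5. SDK1, which encodes a synaptic adhesion protein, had 23.8 kb (2.46%) inside, and GABRG3, a GABA-A receptor subunit, 18.6 kb (3.26%). MAPK9, the stress kinase JNK2, had 18.9 kb (32.1%), TTC34 16.9 kb (10.3%) and the potassium channel gene KCNQ1 15.7 kb (3.88%). KMT2C, a histone H3 lysine 4 methyltransferase with partial copies elsewhere in the genome, had 14.7 kb (4.89%). The neuronal adhesion gene DSCAM had 13.6 kb (1.62%), FAM135B 13.2 kb and the retinoic acid receptor gene RARB 12.9 kb (1.67%). One domain of 12.8 kb lay over the neighbours NCR1, a natural killer cell receptor (32.0% covered), and NLRP7, a maternal-effect gene linked to hydatidiform mole (30.0%). GPR39, a zinc-sensing receptor, had 12.6 kb (5.48%), ZIM2 12.5 kb (18.9%), the centriole gene SCLT1 12.5 kb (5.66%) and CCDC30 11.9 kb (5.93%). Of these 20 genes 14 were longer than 100 kb, and 2 met a domain within 5 Mb of a gene-free stretch. A domain inside a gene body marks that stretch only and says nothing of the gene's transcription.

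**Figure D5:**
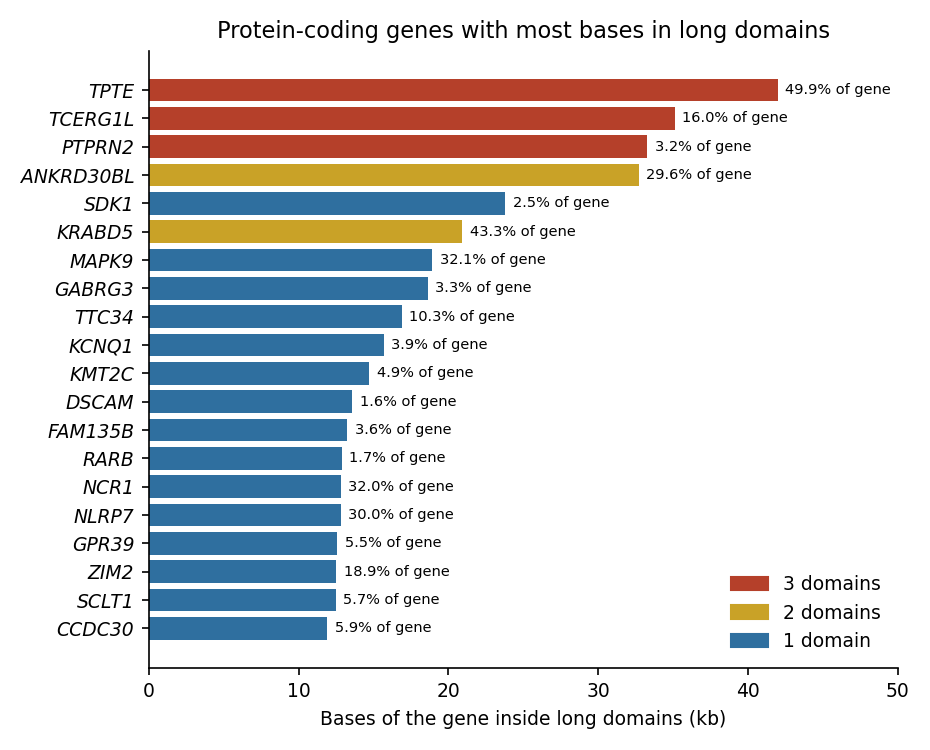
Bases inside long domains (x axis, kb) for the 20 protein-coding genes with most such bases, coloured by the number of domains, with the share of the gene body printed beside each bar. TPTE (42.0 kb), TCERG1L (35.1 kb) and PTPRN2 (33.3 kb) each meet 3 domains, and their covered shares range from 3.17% to 49.9%.

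Although protein-coding zinc finger genes were set aside by symbol, 17 domains (4.25%) met relatives of them. Of these, 13 overlapped a pseudogene or non-coding gene with a zinc finger symbol, such as ZNF37BP on chromosome 10 with 2 domains, ZNF271P on chromosome 18, ZNF300P1 on chromosome 5 and ZNF849P on chromosome 19. In all, 12 of 179 such genes were overlapped (6.70%), beside 0.407% of all genes, 0.42% of pseudogenes and 1.59% of transcribed pseudogenes. Another 4 domains overlapped protein-coding genes whose older RefSeq synonyms carry a zinc finger prefix. These were KRABD5, which encodes a KRAB domain and was 43.3% covered by 2 domains, RBAK with its readthrough gene RBAK-RBAKDN (45.2% and 41.7% covered) and ZIM2. The scores per base pair of the 17 ranged from 4.71 to 13.1 with a median of 9.57. The label therefore holds for the symbols of the rule and not for the whole zinc finger family. By covered share, the first gene of at least 5 kb was LOC124904792 on chromosome 19, 75.1% inside a domain that also overlaps ZNF818P.

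Imprinted loci were met at 3 of 27 genes of a list of imprinted genes (11.1%, beside the 0.407% of all genes). KCNQ1 and KCNQ1OT1, the antisense RNA expressed from the paternal copy, shared 1 domain at 2636990-2652670 on chromosome 11 (15681 bp, 8.75 units per base pair), which covered 17.1% of KCNQ1OT1. ZIM2 was covered over 18.9% by a domain of 12527 bp with 5.71 units. Imprinted genes lie in few clusters, so these are not independent cases. The list does not separate the parental alleles.

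The Prader-Willi region on chromosome 15 held 5 domains between 25 and 28 Mb. The longest of these, at 25042609-25087724 (45116 bp, 11.9 units per base pair), overlapped 20 of 30 SNORD116 genes (19 of them whole), beside 0.407% of all genes. SNORD116 genes form the small nucleolar RNA cluster whose paternal loss is linked to Prader-Willi syndrome. The host transcript SNHG14 met this domain and 1 more of 12275 bp with 5.97 units, 57.4 kb or 9.63% in all. None of the 48 SNORD115 genes of the same host transcript was overlapped, which allows a share of up to 6.25%. The other domains of the region lay in GABRG3, in OCA2, the pigmentation gene (2.74% covered, 4.78 units), and in no gene. This group and the families of the next paragraph were picked after their values were seen.

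Several repeated families were met outside the protein-coding genes, and the counts stand beside 0.407% of all genes and 0.42% of pseudogenes. FRG1 pseudogenes were overlapped in 2 of 9 cases (22.2%), FRG1BP on chromosome 20 over 90.4% of its length by 3 domains with 11.4 to 24.7 units per base pair, and FRG1JP on chromosome 9. DUX4-like genes and pseudogenes were overlapped in 4 of 46 cases (8.70%), in 2 domains. Of 527 ribosomal RNA genes and pseudogenes, 5 pseudogenes were overlapped (0.949%), in 5 domains with a median of 44.9 units per base pair. They were 3 of 28 from the 45S unit (10.7%) and 2 of 499 from 5S (0.401%, near the share of all pseudogenes). RNA28SP, RNA5-8SP2 and RNA5-8SP5 lay in domains with 44.9, 46.3 and 76.7 units, and the 5S pseudogenes RNA5SP283 and RNA5SP284 in domains with 12.8 and 18.96 units. Vomeronasal receptor genes and pseudogenes, remnants of pheromone sensing, were met in 5 of 108 cases (4.63%), and each of the 5 was a pseudogene. Immunoglobulin heavy variable segments were met in 5 of 147 cases (3.40%), in 3 domains. In these families reads from near-identical copies may have been assigned to any copy, and the handling of such reads is not given in the sources used here.

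Other gene lists gave few or no overlaps. The counts below stand beside the 0.264% of protein-coding genes met in all, and nothing particular to a list is read from them. Among clustered protocadherins 2 of 53 genes were met (3.77%). PCDHB15 lay whole inside a domain of 35593 bp at 10.9 units per base pair, whereas a domain of 35102 bp at 8.04 units met the first 1.45% of PCDHA1. Olfactory receptors were met in 5 of 391 cases (1.28%), with OR1L4 whole inside a domain and OR2L13, OR2L5 and OR2L2 sharing 1 domain on chromosome 1. OR4N2 was covered over 29.4%. Of 43 large neuronal adhesion and synapse genes on the list CTNNA2 alone was met (2.33% of the list, 0.74% of the gene covered). That list is not complete. SDK1 and DSCAM, given above, and CNTN1 (3.09% covered), PCDH15 (0.65%) and ROBO2 (0.61%), which also encode neuronal or sensory cell adhesion proteins and are not on it, met 1 domain each and were picked after their values were seen. Of 248 genes of segmental duplication families only ANKRD30BL was met (0.40%), and of 111 zinc finger genes with other prefixes only ZIM2 (0.90%).

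No gene was met in 9 of the 15 lists. Among them were the keratin-associated proteins (0 of 94, which allows up to 3.19%), cytochrome P450 and UGT genes (0 of 78, up to 3.85%), ribosomal proteins (0 of 80, up to 3.75%) and meiotic and germline genes (0 of 38, up to 7.89%). So were hepatocyte genes (0 of 27, up to 11.1%), pluripotency genes (0 of 19, up to 15.8%), regulators of H3K9 methylation and ERH partners, ERH included (0 of 21, up to 14.3%), and DUX4 and FRG genes (0 of 5, up to 60.0%). The last was the list of fibroblast genes, such as the collagens and VIM (0 of 22, up to 13.6%). With 0.264% of protein-coding genes met, 0 is the count that lists of this size would mostly show, and nothing is read from it.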

How the data were processed

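The authors deposited 1 merged list of H3K9me3 regions for the 3 ERH knockdown samples, without a header, in 6 columns. The submitters' processing notes name Bowtie2 2.3.4.1, SAMtools 1.16.1, R 3.6.3, deepTools 3.5.0, bedtools 2.27.1, SEACR 1.3 and the build hg38, without their roles. The deposited score is a whole number per region whose unit is not given in the sources used here. The piece number, deposited without a name, is above 1 in 17 rows that repeat an earlier score, some on another chromosome. For 2 of the domains, which begin such split regions, the score may cover more than the row.

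Genes and promoter windows came from RefSeq tables of GRCh38.p14, and overlap meant at least 1 shared base. Coordinates are 1-based. Wilson 95% intervals stand beside shares. Where 0 was counted, the limit corresponds to 3 counts. No test was made, since the list has no replicates and its own values chose the domains. Depth is unknown. The domains, gene lists and alternatives were chosen with earlier results of these data known. Named were the 15 longest domains, the 5 highest and 5 lowest by score per base pair, 3 on each side of the length minimum, the 5 fullest windows of 2 Mb, the 20 protein-coding genes with most bases in domains, up to 10 genes of at least 5 kb by covered share, and overlapping genes of 15 lists; not every gene so picked is printed. Python 3.11.15, numpy 2.4.6, pandas 2.3.3, scipy 1.17.1 and matplotlib 3.10.9 were used. The interval arithmetic was tested on simulated data, with 0 disagreements with counting each base over 300 sets. Alternatives were other length minimums, joining, zinc finger symbols of any gene type, a score ceiling and other overlap rules. Sequence content of the domains was planned and not run, as no genome was used here.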

Additional observations from a re-analysis of the deposited data

Results flagged for a closer look

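The rule took autosomal rows with piece number 1, and other long rows of the list lay outside it. Of 565 rows of at least 10 kb, 39 lay off the autosomes, with a median of 13.4 score units per base pair and a longest row of 71649 bp. Chromosome X held 16 of them (median 7.20 units, highest 54.1), chromosome Y 14 (6.24 to 203 units) and unplaced or unlocalised contigs 8 (median 9.38 units). The remaining row is the whole mitochondrial genome, 16569 bp with 487 units, which carries no histones. A single autosomal row of 14245 bp, on chromosome 7 at 61732256-61746500, was left out because it is piece 3 of a split region, and its score per base pair has no clear meaning.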

How the results depend on the processing

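Of 54 values of 8 measures under alternatives, 28 stayed within their 95% interval or, for numbers and summed lengths, within 1.5 times. A length minimum of 8 kb gave 655 domains with a median of 10982 bp and 7.89 score units per base pair, of which 17.3% met a protein-coding gene (103 genes), 67.2% had the next domain within 1 Mb and 45.5% lay within 5 Mb of a gene-free stretch. A minimum of 20 kb gave 140 domains and 5.42 Mb, with a median of 31317 bp, 10.6 units, 5.71% with a protein-coding gene (7 genes), 86.4% with a next domain within 1 Mb and 88.6% near a gene-free stretch. Joining regions within 5 kb gave a median of 13300 bp, 6.42 units, 20.4% with a protein-coding gene (98 genes), 56.9% with a next domain within 1 Mb and 33.7% near a gene-free stretch. These 3 changes alter the set by construction. With at most 20 units per base pair the median was 8.05 units. All annotated genes gave 36% of domains with a gene, and a covered share of at least 10% left 21 protein-coding genes. Of the settings added after the data were seen, gene-free stretches of at least 3 Mb gave 51.0% near one and a distance of 1 Mb gave 43.5%. The covered shares of the 20 named genes moved by over 1.5 times for 19 of them with the 20 kb minimum, for 1 with 8 kb and for 5 with joining. With at most 20 units per base pair that of ANKRD30BL moved from 29.6% to 10.5%. Leaving out a replicate was not possible with 1 pooled list. No paired analysis was possible because the 3 replicates are merged into 1 list and no second group was analysed.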
